A study of Mus musculus with 10 samples.

Results

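Fgf21 encodes fibroblast growth factor 21, a hormone of the endocrine branch of the fibroblast growth factor family. It was measured by 1 probe on an Agilent mouse array, chosen as every gene probe whose RefSeq accession maps to Fgf21, which left 1 of 55681 gene probes and 1 of 19752 gene symbols. That probe had a single spot on each of 10 arrays. The arrays hold RNA of 5 groups of 2. The 3 muscle groups are of male mice on the C57BL/6J strain: wild type mice left untreated, hSA::Fv2E-PERK transgenic mice given vehicle, and hSA::Fv2E-PERK transgenic mice given AP20187 by intraperitoneal injection at 1 ng/g. C2C12 cells, a mouse myoblast line, carried Fv2E-PERK in both of their groups, were grown in 10% fetal bovine serum, were differentiated for 3 days in 2% horse serum, and received vehicle or 100 nM AP20187. Mice given an injection and all cells were collected after 12 h.

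In Fv2E-PERK the kinase part of PERK is joined to a domain that the small molecule AP20187 draws into pairs, which switches the kinase on. In the mice the hSA promoter, that of skeletal actin, places it in muscle fibres, so other cells of the tissue are not targeted. The wild type mice carried no transgene and received no vehicle, so the transgene and the vehicle injection cannot be told apart in the first step below. The labels used here give no age and do not say whether the 2 samples of a group came from separate animals or cultures. The p-values then measure only the spread between these samples, which may be technical.

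PERK is a kinase of the endoplasmic reticulum that phosphorylates the initiation factor eIF2alpha. This slows translation in general while the transcription factor ATF4 is made in larger amounts, and ATF4 with its partners switches on genes of amino acid supply and stress defence, the integrated stress response. Fgf21 is a target of this response and of the fasting regulator PPAR alpha. The liver is its main source in the fed and fasted animal, and stressed muscle can release it, so that it is counted among the myokines. The hormone acts on cells that carry an FGF receptor together with the co-receptor beta-klotho.

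In the GRCm38.p6 assembly Fgf21 is a protein-coding gene of 1601 bases on the minus strand, at chr7:45613890-45615490. The 250 bases before its first transcribed base are shown because the gene went from background to a bright signal in these arrays, and because they hold the letters of an element that ATF4 and C/EBP proteins share. They are RefSeq sequence of GRCm38.p6, chr7:45615491-45615740, written 5′ to 3′ on the minus strand, the strand of the gene. The first capitals are TTGCATCA, which is TGATGNAA read on the opposite strand, 139 to 132 bases before the start, and the second are CACGTG, an E-box, 50 to 45 bases before it.

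Fgf21 promoter: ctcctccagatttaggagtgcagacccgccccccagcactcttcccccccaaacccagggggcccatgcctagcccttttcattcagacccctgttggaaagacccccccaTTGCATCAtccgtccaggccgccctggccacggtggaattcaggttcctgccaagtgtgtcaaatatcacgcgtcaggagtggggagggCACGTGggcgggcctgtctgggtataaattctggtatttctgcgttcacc

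Both strands of every RefSeq promoter window (250 bases before to 50 after a start, 32851 windows of 27025 genes) were searched for the same letters. TGATGNAA, the C/EBP-ATF composite element, was in 3.97% of windows, and CACGTG was in 7.15%. The Fgf21 window held none of 3 other searched strings, which were TGACGTCA (the cAMP response element, in 1.79% of windows), AGGTCA (a nuclear receptor half-site, in 16.3%) and TGACNNNGC (an antioxidant element core, in 12.4%). A match is a description of letters, and no binding was measured. Among 23 other genes listed as targets of ATF4 and its partner CHOP, 21 had a window and 8 of them held TGATGNAA, against 4.51% of all genes with a window. The match of each is given beside that of Fgf21, in capitals, so that they can be read together. Slc7a11 has a second match that is not shown, and the match of Trib3 lies just after its start.

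Fgf21: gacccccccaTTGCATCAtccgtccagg

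Atf3: cttctcgcacTTGCATCAccaagtccgc

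Chac1: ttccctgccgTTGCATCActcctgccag

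Nupr1: aagggccagaTTGCATCAgacagggctt

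Slc7a11: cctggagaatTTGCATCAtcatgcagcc

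Vldlr: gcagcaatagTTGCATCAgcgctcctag

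Trib3: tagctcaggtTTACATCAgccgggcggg

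Pck2: gccttcaaagTTACATCAgtatcttaca

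Asns: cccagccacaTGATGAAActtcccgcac

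Fgf21, Atf3 (a stress-induced repressor), Chac1 (a glutathione-degrading enzyme), Nupr1 (a stress-induced nuclear protein), Slc7a11 (the cystine transporter) and Vldlr (a lipoprotein receptor) hold the same 8 letters. Trib3 (a pseudokinase) and Pck2 (a mitochondrial enzyme of gluconeogenesis) differ from them at the free position. Asns, the asparagine synthetase gene, matches on the other strand.

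The Fgf21 spot of wild type muscle read processed intensities of 8.74 and 2.11, and neither was well above background by the scanner software's test. On the same arrays the lowest signals that did pass that test were 8.22 and 9.19. Transgenic vehicle muscle read 10432 and 10667, and AP20187-treated transgenic muscle read 18828 and 24104. C2C12 cells read 1200 and 539 with vehicle and 2988 and 2291 with AP20187. Fgf21 was therefore well above background on 8 of 10 arrays, with no outlier flag and no saturated spot.

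Levels below are log2 of the processed intensity minus the log2 of the array's 75th percentile of gene spots, so that 0 is the level of a spot at that percentile. Fgf21 stood at -4.18 and -6.42 in wild type muscle, where only an upper limit is known. It stood at 5.89 and 6.01 in transgenic vehicle muscle (mean 5.95 ± 0.09, SD, n = 2) and at 6.60 and 6.89 in AP20187-treated transgenic muscle (6.75 ± 0.21, SD, n = 2). In C2C12 it stood at 2.41 and 1.77 with vehicle (2.09 ± 0.45, SD, n = 2) and at 4.22 and 3.94 with AP20187 (4.08 ± 0.20, SD, n = 2). From the highest to the lowest the order was transgenic muscle with AP20187, transgenic muscle with vehicle, C2C12 with AP20187, C2C12 with vehicle, and wild type muscle.

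No neighbours in that order overlapped. The narrowest gap between them, 0.59 log2 units, lay between transgenic muscle with and without AP20187. The gap was 1.66 between transgenic vehicle muscle and C2C12 with AP20187, and 1.53 between the C2C12 groups. With 2 arrays against 2, the exact two-sided permutation test cannot go below p = 0.333, so the tests below rest on limma's moderated fit across all genes, with Benjamini-Hochberg adjustment over every gene tested. Muscle and cells were scanned in different sessions, and the order across them was not tested.

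**Figure D1:**
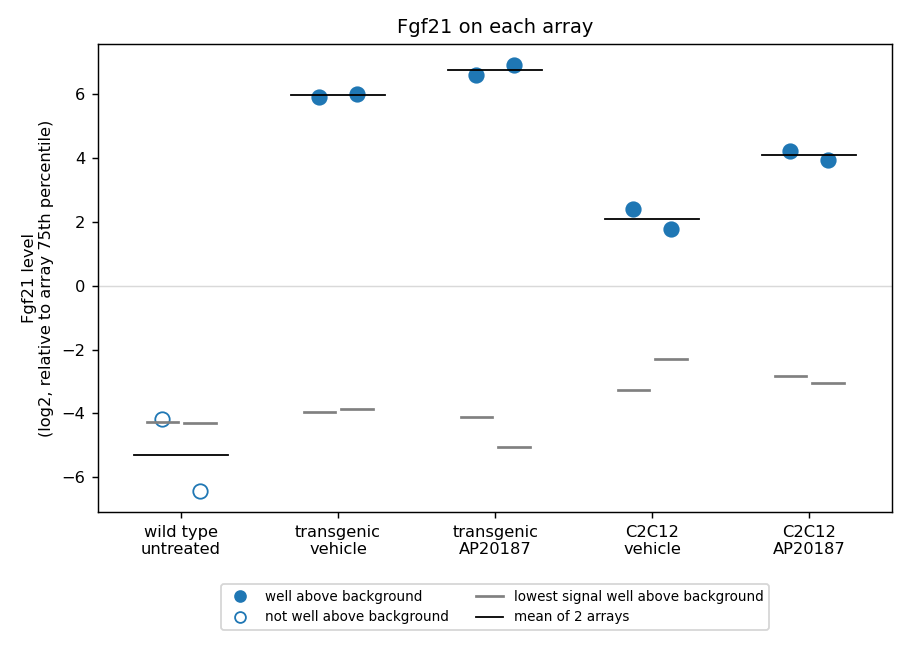
Level of Fgf21 on each of the 10 arrays, on a log2 scale relative to the array's 75th percentile (y axis), by group (x axis). Filled circles are well above background, open circles are not, grey dashes mark the lowest signal on that array that was well above background, and black lines are the means of 2 arrays. Both wild type circles are open, and the transgenic vehicle pair stands at 5.89 and 6.01.

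The first comparison asks what the transgene does before the activating drug is given. Fgf21 rose from background to a bright signal. In the scanner's processed intensities its level was at least 1163-fold higher in transgenic vehicle muscle than in wild type muscle. This bound sets the mean of the 2 transgenic arrays (5.95) against a wild type limit of -4.24, the mean over arrays of the higher of the lowest well-above-background signal and the spot's own. On the log2 scale it is a difference of at least 10.18, and both transgenic arrays lay above both wild type arrays. The bound is not a firm limit, since wild type replicate 1 read 8.74, above the lowest passing signal of 8.22, and did not pass. Every value below given as at least is such a bound. It holds for these processed intensities and can be smaller under another background correction. The fit on the measured means, which takes the wild type readings below background as they stand, gave 11.24 with an adjusted p of 2.38e-05 (limma). In that comparison 25.7% of 13543 genes were called higher; Fgf21 entered the test through the transgenic groups alone, since it was at background in wild type.

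Fgf21 belonged to 86 gene symbols that were well above background on neither wild type array and on both transgenic vehicle arrays. Of these, 57 had a bound of 2-fold or more, 11 of 10-fold or more and 3 of 100-fold or more, and the median bound was 2.47-fold. The bound of Fgf21 was the largest. After it came Gdf15 (at least 249-fold higher), another secreted stress hormone, Soat2 (at least 220-fold), which esterifies cholesterol, Slc7a3 (at least 74.6-fold), a transporter of cationic amino acids, Nacad (at least 63.7-fold) and Fut1 (at least 49.7-fold), a fucosyltransferase.

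The wild type arrays were scanned in a session of their own, so scan session, vehicle injection and transgene cannot be told apart for this step. Under background correction by normexp, which adds an offset of 50 to every signal and so raises the 2 dim wild type spots most, the log2 change was 7.39, and it passed the test under all 18 alternatives run.

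The second comparison asks what AP20187 adds in transgenic muscle. Fgf21 read 10432 and 10667 before and 18828 and 24104 after, and both AP20187 arrays lay above both vehicle arrays. The log2 change was 0.80 (SE 0.58, 95% interval -0.55 to 2.15), which is 1.74-fold, and it did not pass the test (adjusted p = 0.321 by limma, with 14.3% of 13543 genes called higher). The vehicle level was 57.5% of the AP20187 level on the linear scale. A test that misses the threshold does not show that the level stayed the same.

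That error came mainly from arrays outside the comparison. The fit pools the spread of 3 groups, and the 2 wild type readings below background, 2.24 log2 units apart, made up 98.0% of the pooled variance of Fgf21. Its SE was the 224th largest of 13543 genes, against a median SE of 0.14 over all genes. With the 4 transgenic arrays alone the same change of 0.80 had an SE of 0.13 and an adjusted p of 0.00574 (limma), and the 6-array SE was 4.45 times as large. The call was also made with the signals below background raised to a floor (0.80, adjusted p = 0.00362 by limma) and under normexp (0.85, adjusted p = 0.00306), which both draw the wild type readings together. It was made as well without wild type replicate 1 or 2 (0.80 in each, adjusted p = 0.00710 and 0.00713). Over the 19 alternatives the change ran from 0.65 to 0.97, the adjusted p from 0.00306 to 0.536, and 5 passed. Both transgenic groups were scanned in the same session.

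**Figure D2:**
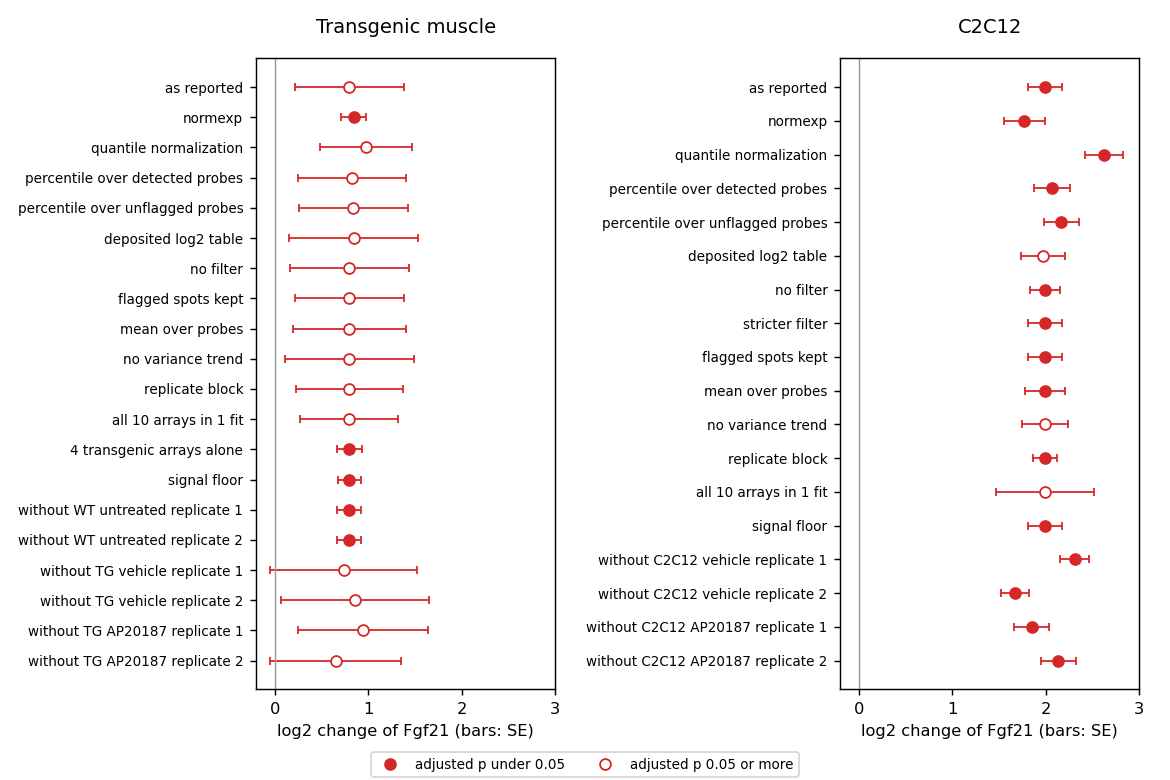
Log2 change of Fgf21 with AP20187 against vehicle (x axis, bars are SE) in transgenic muscle (left) and in C2C12 (right) under each processing setting (y axis). Filled circles have an adjusted p under 0.05. In muscle the estimate stays between 0.65 and 0.97, and 5 alternatives pass; the reported C2C12 estimate is 1.99.

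The difference between the steps was large. With wild type signals below background set to the floor, the transgene step exceeded the AP20187 step by at least 9.39 log2 units (adjusted p = 1.17e-06 by limma). The floor, chosen after seeing the data, draws the wild type readings together. It lowers the SE from 1.01 to 0.21, so that p rests on the setting. On the measured readings the same test gave 10.45 (adjusted p = 0.00163; 17.4% of genes were called higher), and under normexp it gave 6.54. Because the steps share the vehicle arrays, an error in those arrays enters both with opposite sign. Over both steps together Fgf21 was at least 2024-fold higher in AP20187-treated transgenic muscle than in wild type muscle (fitted log2 change 12.04 on the measured readings, adjusted p = 7.11e-06 by limma; 29.6% of genes were called higher). Of the log2 distance from the wild type limit to the AP20187 level, 92.7% lay in the transgene step.

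In C2C12 cells Fgf21 was already well above background with vehicle, at intensities of 1200 and 539, and read 2988 and 2291 with AP20187. Both drug-treated arrays lay above both vehicle arrays. The log2 change was 1.99 (SE 0.19, 95% interval 1.58 to 2.40), which is 3.97-fold, with an adjusted p of 0.000336 (limma). In this comparison 0.316% of 11409 genes were called higher. How many genes passed in either direction depended on the scaling: 55 as reported, 360 under normexp and 4689 under quantile normalization, and Fgf21 passed in each. The vehicle level was 25.2% of the AP20187 level, against 57.5% in transgenic muscle.

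The call in C2C12 was lost in 3 of 17 alternatives: with the authors' deposited log2 table (1.97, adjusted p = 0.0814), without a variance trend (1.99, adjusted p = 0.0702), and with all 10 arrays in 1 fit (1.99, adjusted p = 0.114), in which the wild type pair made up 89.6% of the pooled variance. By the file headers the vehicle and AP20187 arrays lay in different rows of their slides, so row and treatment cannot be told apart. The headers give some of the same slide positions to transgenic muscle arrays as well, so this layout is itself uncertain.

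Fat cell genes moved with the drug in the same cells. Of 7 adipocyte markers, 0 to 4 were well above background on the vehicle arrays and 6 on each AP20187 array, and their summed signal, in units of the array's 75th percentile, was 0.819 to 1.07 with vehicle and 7.96 to 11.3 with AP20187. Adipoq, the adiponectin gene, was not well above background on either vehicle array and was at least 7.88-fold higher with AP20187. Its fit on the measured readings gave an adjusted p of 0.000345 (limma). Fgf21 was well above background on the vehicle arrays too. In wild type muscle all 7 markers were well above background, at a summed signal of 168 to 219, while Fgf21 was not. Marker RNA alone does not show whether fat cells were present in the cultures, and their part in the C2C12 result was not tested. Of 6 markers of developing myotubes, 5 had a value on all 4 arrays, and these summed to 276 to 282 with vehicle and 259 to 276 with AP20187. The spots of Myh3 were flagged on both AP20187 arrays. Of 10 markers of mature skeletal muscle, 8 had a value on all 4 arrays, and these summed to 447 to 498 with vehicle and 365 to 407 with AP20187. Among the 9 tested, 0 rose and 2 fell, against 0.316% and 0.167% of all genes, with a median of -0.42 against -0.06.

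The AP20187 change of Fgf21 was smaller in muscle than in C2C12 by 1.19 log2 units, and this difference did not pass the test (-1.19, SE 0.74, 95% interval -2.83 to 0.44, adjusted p = 0.313 by limma; 4.02% of 14094 genes were called lower). It passed under 4 of 21 alternatives: normexp (-0.92, adjusted p = 0.0473), the signal floor (-1.19, adjusted p = 0.0113), and without wild type replicate 1 or 2 (-1.19 in each, adjusted p = 0.0251 and 0.0245). Each of these alternatives draws the wild type readings together or leaves a wild type array out, which lowers the pooled spread. Dose, medium, baseline level and scan session all differed between muscle and cells.

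Muscle tissue also holds cells other than fibres, and fewer cells of a type and less RNA per cell cannot be told apart in bulk RNA. All 10 markers of mature skeletal muscle were well above background on every muscle array. They summed to 11080 to 12620 in wild type, 12700 to 12830 in transgenic vehicle and 9206 to 10540 in AP20187-treated muscle. In the transgene step 1 rose and 3 fell, against 25.7% and 12.6% of all genes. In the AP20187 step 0 rose and 3 fell, against 14.3% and 15%. Of 6 developing myotube markers, 4 rose and 1 fell in the transgene step, and 1 rose and 1 fell in the AP20187 step. The 8 hepatocyte markers, of the organ known for Fgf21, summed to 24.8 to 38.9 in wild type, 20.4 to 22.7 in transgenic vehicle and 14.7 to 15.9 in AP20187-treated muscle. Most of that signal came from Apoa2 and Cyp2e1, and Apoa2 was well above background in C2C12 too. Several markers were far apart on the wild type arrays: Alb, the albumin gene, stood at -4.19 and 1.37, and Serpina1a at -1.38 and 2.86, while Serpina1a was well above background on neither transgenic vehicle array. Adipocyte markers summed to 168 to 219 in wild type, 261 to 362 in transgenic vehicle and 194 to 321 in AP20187-treated muscle. Of these 7 markers 2 rose in the transgene step, Cidec (1.15) and Fabp4 (0.48), which is near the 25.7% of all genes called higher. In the AP20187 step 0 passed, against 14.3% of all genes called higher and 15% called lower. Of 6 markers of the acinar pancreas, another organ that makes Fgf21, at most 1 was well above background on any muscle array; Cela1, the tested marker, rose by 1.71 in the transgene step (adjusted p = 0.0242, limma) and was well above background on 1 of the 2 wild type arrays. Macrophage markers summed to 25.8 to 27.8 in wild type, 22.1 to 24.6 in transgenic vehicle and 13.6 to 14.2 in AP20187-treated muscle. In the AP20187 step 5 of 5 tested fell, against 15% of all genes, with a median of -0.96 against -0.11. The part of these cells in the Fgf21 levels was not tested. The probe for Eif2ak3, the gene of PERK itself, had log2 changes of 0.20 (adjusted p = 0.362) in the transgene step and 0.09 (adjusted p = 0.711) in the AP20187 step (limma); it is not known whether the transgene's own RNA can bind this probe, so it checks nothing about the labels.

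Fgf21 was next set beside regulators that are known to act on it, 18 genes of which 17 were tested in muscle. In the transgene step, in which Fgf21 rose, 5 of the 17 rose and 6 fell, against 25.7% and 12.6% of all genes, with a median log2 change of -0.18 against 0.09 over all genes. Those that rose were the stress factors Atf4 (1.53), Ddit3, which encodes CHOP (1.93), Xbp1 (0.72), Atf6 (0.44) and the antioxidant factor Nfe2l2 (0.99). Those that fell were Ppara, the fasting regulator (-0.45), the carbohydrate sensor Mlxipl (-0.68), the thyroid hormone receptor Thrb (-0.80), Foxo1 (-0.61), the myogenic factor Myod1 (-1.27) and Bhlhe40 (-0.84). Of 19 alternatives, the call was made in 14 for Atf6, 15 for Ppara and 13 for Foxo1.

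In the AP20187 step, where Fgf21 had its change of 0.80, 9 of the 17 regulators rose and 0 fell, against 14.3% and 15% of all genes, with a median of 0.39 against -0.11 over all genes. Ddit3 rose by 3.09, Nfe2l2 by 1.41, Atf6 by 1.31, Xbp1 by 0.92 and Atf4 by 0.39. Also called were Myod1 (0.58), Bhlhe40 (0.54), Nr3c1 (0.31, called in 11 of 20 alternatives) and Mlxipl (called in 16 of 20), which complete the 9. The count was 5 without transgenic vehicle replicate 2 and 5 without AP20187 replicate 1. In C2C12, where Fgf21 rose 3.97-fold, 0 of 14 tested regulators passed (limma). Of all genes, 0.316% were called higher and 0.167% lower there, so 0 of 14 is near the share over all genes. The values of Atf4 and Ddit3 were 0.30 and 0.54 (adjusted p = 0.286 and 0.124, limma). The value of Atf4 there ran from -2.44 to 0.83 over 17 alternatives. Of the regulators, 9 passed under quantile normalization, where 4689 of 11409 genes passed in either direction. That setting moved the median of all genes in that comparison from -0.06 to 0.34.

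Other targets of ATF4 and CHOP place the steps of Fgf21 in context. Of the 23 listed, 18 rose and 2 fell in the transgene step, against 25.7% and 12.6% of all genes, with a median log2 change of 2.50 that is the same with dim genes at their bound. In the AP20187 step 17 rose and 0 fell, against 14.3% and 15%, with a median of 1.01. In the transgene step 20 of the 23 were measured in wild type, and the bound of Fgf21, at least 10.18, was above the change of each, the largest being that of Trib3 (7.75). Under normexp the change of Fgf21 was 7.39, while Trib3 ran from 7.15 to 8.00 over 19 alternatives, so this order may rest on the processing. Gdf15, Slc7a11 and Pck2 were at background in wild type and have bounds alone (at least 7.96, 3.65 and 2.62), so they cannot be ranked against Fgf21. In the AP20187 step the 0.80 of Fgf21 lay below the list median. The 2 steps share the vehicle arrays, so the values that follow are set side by side only.

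The listed targets fell into several patterns in the 2 muscle steps. Those that rose in both numbered 13, with Gdf15 (at least 7.96 and then 1.40), Trib3 (7.75 and 1.48), Asns (5.66 and 0.47, the latter called in 13 of 20 alternatives) and Atf3 (2.03 and 3.46) among them. A further 5 rose in the transgene step and were not called in the AP20187 step: Mthfd2 (5.39 and 0.18), Psat1 (4.80 and -0.19), Phgdh (3.41 and 0.07), Atf5 (2.18 and 0.03) and Shmt2 (0.72 and 0.28). Of these, Psat1 and Phgdh make serine, and Mthfd2 and Shmt2 belong to mitochondrial folate metabolism. Fgf21 was not called in the AP20187 step of its 6-array fit either, but its 0.80 was larger than the AP20187 change of each of the 5. Ppp1r15a, the phosphatase subunit that reverses eIF2alpha phosphorylation, was the opposite case, at 0.11 (adjusted p = 0.505) and then 4.01, as were Chac1 and Cebpb. Ddit4 fell by 1.61 and then rose by 2.70.

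In C2C12, 3 of 20 tested targets rose, Atf3 (1.44), Cth (1.36) and Trib3 (1.04), and 0 fell, against 0.316% and 0.167% of all genes, with a median of 0.44 against -0.06. The rise of Fgf21 there, 1.99, was larger than that of each of these 20. Trib3, Asns and Slc3a2 each rested on a single AP20187 array, since the other spot carried an outlier flag. Chac1 had no value on either AP20187 array and was not tested. Flags covered 2.37% and 2.00% of gene spots on these arrays, against 0.160% to 0.376% on the others. The count of targets that rose ranged from 0 to 18 over the alternatives. It was 0 without C2C12 vehicle replicate 2, 5 without AP20187 replicate 1 and 18 under quantile normalization.

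**Figure D3:**
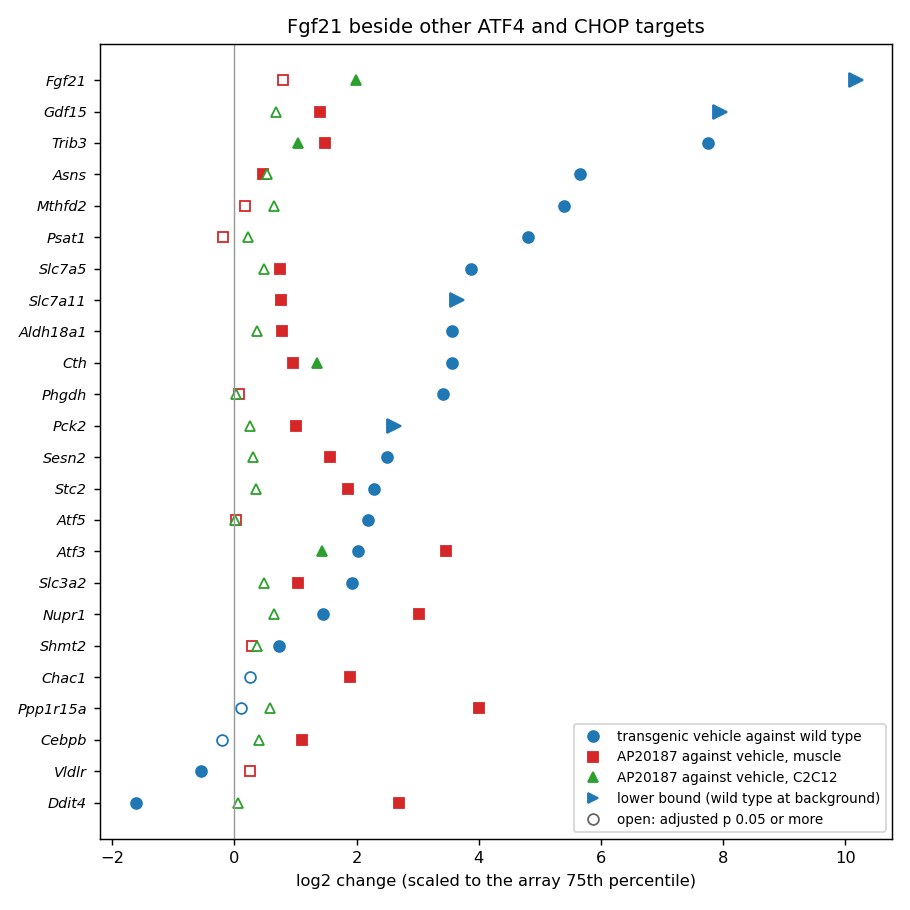
Log2 changes (x axis, levels scaled to the array's 75th percentile) of Fgf21 and 23 listed ATF4 and CHOP targets (y axis, ordered by the transgene step) in the transgene step (circles, or right-pointing triangles for a lower bound where wild type was at background), the AP20187 step in muscle (squares) and in C2C12 (upright triangles). Open symbols have an adjusted p of 0.05 or more. Fgf21 has a lower bound of 10.18 and an open square at 0.80, while Ppp1r15a has an open circle at 0.11 and a filled square at 4.01.

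The receptor side of the axis was measured in the same tissue. Of 10 genes of the endocrine FGF axis besides Fgf21, 8 were tested in muscle. In the transgene step, against 25.7% and 12.6% of all genes called higher and lower, 1 rose, the decoy receptor gene Fgfrl1 (0.33, adjusted p = 0.0195, limma), and 1 fell, Fgfr1, the FGF receptor most tied to FGF21 signalling. Fgfr1 stood at 3.86 and 3.81 in wild type and at 3.32 and 3.34 in transgenic vehicle muscle. The groups did not overlap, and the change was -0.51 (adjusted p = 0.00369, limma). In the AP20187 step 1 rose, Fgfr3 (0.52, adjusted p = 0.0321, limma), and 0 fell, against 14.3% and 15%. The call of Fgfrl1 was made in 13 of 19 alternatives and that of Fgfr3 in 11 of 20.

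Klb, the gene of the co-receptor beta-klotho, stood at -2.04 and -2.84 in wild type, -2.97 and -2.48 in transgenic vehicle and -3.66 and -3.27 in AP20187-treated muscle. It was dim throughout, was well above background on 1 of the 2 AP20187 arrays and on both arrays of the other muscle groups, and was so on 0 of 4 C2C12 arrays. Its changes of -0.29 and -0.73 did not pass (adjusted p = 0.537 and 0.140, limma). Fap, a protease that cleaves the hormone, had changes of -0.22 and -0.30 (adjusted p = 0.135 and 0.0652, limma). Over both steps together 0 of the 8 rose and 3 fell, against 29.6% and 22.6% of all genes: Fgfr1 (-0.61, adjusted p = 0.000988), Fap (-0.52, adjusted p = 0.00447) and Klb (-1.02, adjusted p = 0.0371, limma). The call was made in 18 of 19 alternatives for Fap and in 12 of 18 for Klb. In C2C12, 0 of 5 tested genes of the axis passed, where 0.316% of all genes were called higher and 0.167% lower.

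Genes that FGF receptors switch on through the MAP kinase pathway were followed as a readout of the receptor, 12 listed and 10 tested in muscle. While Fgf21 rose in the transgene step, 0 of the 10 rose and 3 fell, against 25.7% and 12.6% of all genes. Those that fell were Etv4 (-1.43), Fos (-1.38) and Spry1 (-0.35), the last called in 13 of 19 alternatives. The median was -0.47 against 0.09. In the AP20187 step the immediate early genes Fos (3.57) and Egr1 (2.82) rose and 0 fell, against 14.3% and 15% of all genes, and the median was 0.20 against -0.11. Dusp6, a phosphatase of that pathway, had changes of -0.12 and -0.16 (adjusted p = 0.357 and 0.226, limma). In C2C12, 0 of 9 passed, where 0.316% of all genes were called higher and 0.167% lower. Many other signals also act on the listed genes.

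Among 19 other Fgf genes 10 were tested in muscle. In the transgene step Fgf7, a growth factor of epithelial cells, rose by 3.16, Fgf9 by 0.84 and Fgf1 by 0.68, and 0 fell; 3 of 10 is near the 25.7% of all genes called higher. Fgf7 stood at -0.57 and -0.22 in wild type, at 2.68 and 2.85 in transgenic vehicle and at 3.37 and 3.67 in AP20187-treated muscle, and no 2 of these groups overlapped. Its AP20187 change of 0.75 passed (adjusted p = 0.0114, limma). In C2C12, where Fgf21 rose, 0 of 3 tested passed, against 0.316% of all genes called higher and 0.167% called lower. Fgf7 had a change of 0.19 there (adjusted p = 0.813, limma).

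Likeness of pattern was measured as Pearson's r with Fgf21 after centring muscle and C2C12 arrays each on their own mean, over 10 arrays and 10108 genes. The arrays share their scaling and groups, and most of the variance lies between wild type and transgenic muscle, so r is given as a description; wild type readings below background enter it as measured. The median r was 0.22, and 579 genes had an r over 0.9. The 8 most alike were Mthfd2 (0.995), Adm2 (0.993), which encodes a secreted peptide of the calcitonin family, Fut1 (0.992), G0s2 (0.991), a lipolysis inhibitor, Aldh1l2 (0.991), a mitochondrial folate enzyme, Trmt112 (0.990), Gna11 (0.989) and Slc7a5 (0.989), the large neutral amino acid transporter. Trmt112 and Gna11 share the rise from wild type at a small size, with transgene changes of 0.53 and 0.57. Their AP20187 changes were 0.02 and 0.04 in muscle and 0.08 and 0.05 in C2C12, and none of these passed.

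Over the 8 arrays that carry Fv2E-PERK, without the wild type pair, the order changed. Fut1 was then first, at 0.993, Mthfd2 had an r of 0.935, Adm2 of 0.921 and Gna11 of 0.568. Next to Fut1 stood Glrp1 (0.984), Zeb2 (0.982) and Appl1 (0.979). Over all 10 arrays Zeb2 and Appl1 had an r of -0.40 and -0.64. Gdf15 and Adm2, also secreted, had an r of 0.987 and 0.993 over all 10 arrays, and of 0.723 and 0.921 over the 8. Among the 10108 genes they ranked 353rd and 23rd over the 8 arrays. Gdf15 had changes of at least 7.96, 1.40 and 0.67 in the transgene step, the AP20187 step and C2C12, the last with an adjusted p of 0.0777 (limma), and Adm2 had changes of at least 4.72, 0.91 and 1.08, the last with an adjusted p of 0.226.

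Fut1 is also the next gene to Fgf21 on the chromosome. It is read from the plus strand at chr7:45617606-45621059, so the genes point away from each other and their starts lie 2116 bases apart. Fut1 stood at -6.32 and -6.46 in wild type, 1.29 and 1.42 in transgenic vehicle and 2.20 and 2.44 in AP20187-treated muscle, and at -2.56 and -3.12 in C2C12 with vehicle and -0.57 and -1.14 with AP20187. It was well above background on 7 arrays, on neither wild type array and on 1 of the 2 C2C12 vehicle arrays, and no 2 groups overlapped.

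In the transgene step the fitted log2 change of Fut1 on the measured readings was 7.75 (adjusted p = 2.04e-07, limma), and it was 3.30 under normexp. The bound of Fut1 was at least 5.64, where that of Fgf21 was at least 10.18. In the AP20187 step Fut1 rose by 0.97 (SE 0.15, adjusted p = 0.00438, limma), where Fgf21 had its change of 0.80. In C2C12 it rose by 1.98 (SE 0.36, adjusted p = 0.0418; 1.57 with the signal floor and 0.91 under normexp), against 1.99. That last call was lost with the deposited table, without a variance trend, without C2C12 vehicle replicate 2 (1.71, adjusted p = 0.258) and without C2C12 AP20187 replicate 1 (1.70, adjusted p = 0.303). The 300-base window of Fut1 held no TGATGNAA.

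None of the other measured genes of the stretch, Bcat2 and Rasip1 among them, passed the test in these comparisons. Bcat2, a branched-chain aminotransferase gene that ends 24180 bases from Fgf21, was well above background on 10 arrays and had changes of -0.02, 0.16 and -0.27 in the transgene step, the AP20187 step and C2C12 (adjusted p = 0.886, 0.222 and 0.357, limma). Rasip1, 12047 bases away on the other side, had changes of -0.26 and -0.08 in muscle (adjusted p = 0.182 and 0.690). Izumo1, which lies between Fut1 and Rasip1, was well above background on 0 arrays. The non-coding genes Gm31479 and 0610005C13Rik had no value here. A test of whether Fut1 differs from these neighbours was not made.

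**Figure D4:**
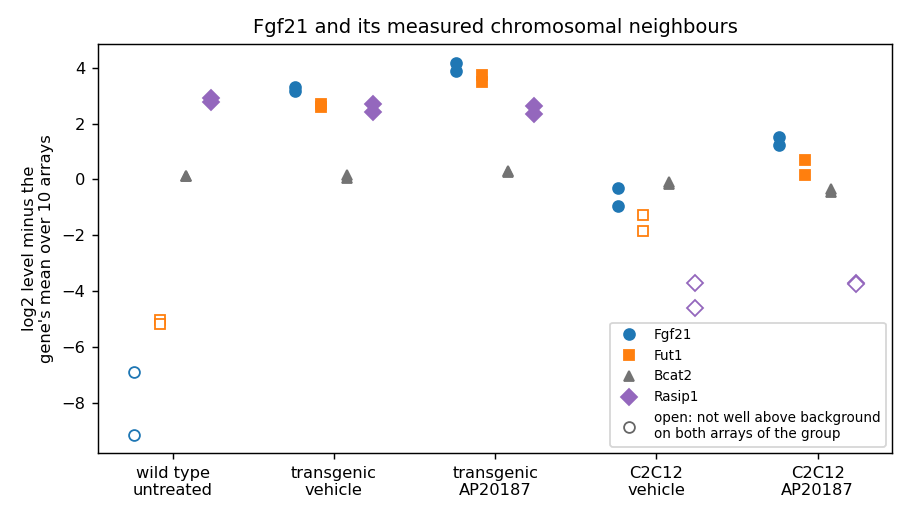
Fgf21 and 3 neighbouring genes on each array (y axis, log2 level minus the gene's own mean over 10 arrays) by group (x axis). Open symbols belong to a group in which the gene was not well above background on both arrays. Fgf21 and Fut1 are lowest in wild type muscle and higher with AP20187 than with vehicle in muscle and in C2C12, while Bcat2, with changes of -0.02, 0.16 and -0.27, stays near its mean.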

How the data were processed

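Single-colour (Cy3) Agilent arrays were used, labelled from 150 ng of RNA per the labels' protocols. Per the file headers, the intensity values are linear and had their background removed by the scanner software, which the submitters' processing notes name as Agilent Feature Extraction 10.7.1.1. The authors' deposited table of log2 values was an alternative. Its array differences correlated with the scanner's at r of 0.9998 or more, so scale and direction are settled and the centring baseline is unknown. Its column medians were -0.46 and -0.45 (wild type), -0.42 and -0.35 (transgenic vehicle), -0.37 and -0.57 (transgenic AP20187), 0.34 and 0.70 (C2C12 vehicle), and 0.80 and 0.77 (C2C12 AP20187).

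Control spots (3671 of 62976) and spots with an outlier flag (0.160% to 2.37% per array) were left out, and log2 intensity minus the array's 75th percentile was used. Between 41.0% and 53.1% of gene spots were well above background. Accessions were named through RefSeq's GRCm38.p6 table (26056 probes, 19752 symbols). Each gene's brightest probe was used, and a gene was tested where a group in the fit had both arrays well above background. Limma 3.58.1 in R 4.3.3 (lmFit, eBayes with a variance trend) was fitted to 6 muscle arrays (3 residual degrees of freedom), 4 C2C12 arrays (2) and all 10 (5), with calls at an adjusted p under 0.05, after being checked on simulated data. Of Fgf21, 6 comparisons were made. Other genes named are members of the lists, the 8 genes of highest r, the chromosomal neighbours and the genes next to Fgf21 by bound. The members, lists and tests were chosen with earlier results of these data known. Alternatives changed background correction, scaling, filter, probe rule, variance trend, block and arrays; normexp on median signals, the signal floor, the percentile over unflagged probes and the correlation over 8 arrays were chosen after seeing the data. The number of arrays limits the precision.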

Additional observations from a re-analysis of the deposited data

How the results depend on the processing

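The rises of Fgf21 in the transgene step and over both steps passed under all 18 alternatives run for each, with log2 changes of 7.39 to 12.37 and 8.23 to 13.16, and the difference between the steps passed under all 17 (6.54 to 11.57); no direction turned in any of the 6 comparisons. The AP20187 change in muscle gained its call under normexp (0.85), with the 4 transgenic arrays alone (0.80), with the signal floor (0.80) and without either wild type array. The C2C12 change lost it with the deposited table (1.97), without a variance trend (1.99) and with all 10 arrays in 1 fit (1.99), and the muscle minus C2C12 difference gained it under normexp (-0.92), the floor (-1.19) and without either wild type array. With each array left out in turn, the changes ranged from 10.12 to 12.37 (transgene step), 0.65 to 0.95 (AP20187 in muscle), 10.92 to 13.16 (both steps), 1.67 to 2.31 (C2C12), -1.51 to -0.88 (muscle minus C2C12) and 9.32 to 11.57 (between the steps); where this left 1 array in a group, it was taken to vary like the others. Same-numbered arrays share only a number: their deviations from the group means correlated at 0.19, 0.31 and 0.35 between muscle groups and at 0.02 between C2C12 groups (9463 genes). With the replicate number as a block the AP20187 changes were 0.80 in muscle and 1.99 in C2C12, and no call of the 6 comparisons changed. A stricter filter left Fgf21 out of the muscle and 10-array fits and gave no value there. Scan session as a random block was not run. Quantile normalization moved the median change of all genes in C2C12 from -0.06 to 0.34, and the C2C12 change of Fgf21 was then 2.62. Wild type signal below background limits the transgene step to a lower bound, which itself depends on the background correction.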
